A study of Homo sapiens with 9 samples.

Results

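PRPF8 sites were examined in the 3 PRPF8 libraries of 10plex ABC in K562 cells, a human erythroleukemia line, against the other 9 RBP libraries of the same samples. ABC (antibody-barcode eCLIP) attaches a DNA barcode to each antibody and ligates it on the beads to the RNA fragments that the captured protein holds, so that 1 UV-crosslinked lysate gives a library for each of 10 RNA-binding proteins (RBPs). Each of the 3 replicates is such a pool of untreated cells with antibodies to DDX3, EIF3G, FAM120A, IGF2BP2, LIN28B, PRPF8, PUM2, RBFOX2, SF3B4 and ZC3H11A, which makes 30 libraries. Replicate 3 is titled K562, although its source field reads K563. The labels do not say whether the replicates are separate cultures. The p-values come from exchanging RBP labels within a pool, so they do not measure the spread between pools or cultures.

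PRPF8 is the large scaffold protein of the U5 snRNP, the particle that enters the spliceosome with U4 and U6 snRNA and holds the ends of the exons that are joined. It sits at the catalytic center and contacts the 5′ splice site of the intron, the branch site and the U5 and U6 snRNAs. The same protein serves the major and the minor (U12-type) spliceosome. SF3B4, another member of the pool, belongs to the U2 snRNP and binds upstream of the branch site near the 3′ splice site.

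The members were the merged CLIPper peaks of the PRPF8 libraries that passed a P below 0.001 and a fold above 8 over the external background, and are called sites here. There were 37651 sites in replicate 1, 33636 in replicate 2 and 40912 in replicate 3. These were 73.9%, 59.2% and 64% of the merged peaks, and 112199 of the 373416 sites of all 30 libraries. For about 98% of PRPF8 peaks the fold was a whole number of reads times a fixed step of 5.7 to 8.01, as the background held at most 1 read, so the limits act mainly as a minimum number of reads. The second background was the CC (complement control), the sum of the other 9 libraries of the pool, over which 22.9%, 30.9% and 15.4% of the peaks with a value passed the same limits. Reads in merged peaks summed to 509073, 579433 and 743293 in the PRPF8 libraries and to between 13351 and 2174427 in the others. An intron was called marked when the center of a site lay from 20 nt before to 100 nt after its first base, on the representative transcript of a protein-coding gene with at least 2 introns (GENCODE release 44, GRCh38).

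The cell identity of the marked genes followed the label. Among genes typical of K562 cells, 8 had the same intron marked in all 3 replicates, including TFRC, the transferrin receptor, with 14 of 18 introns, and GATA1, the erythroid transcription factor, with 2 of 5. ALB, CD3E, GFAP and INS, typical of liver, T cells, astrocytes and pancreatic beta cells, had no marked intron in any replicate. TAL1, an erythroid transcription factor, and the near-identical pair HBA1 and HBA2 had no intron marked in all 3. Because reads were not compared with the amount of each pre-mRNA, an unmarked intron may be unbound, little transcribed or quickly spliced, and these cannot be told apart.

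The 5′ splice sites of the marked introns with the highest recurring fold are printed here, as they show the letters that the score below reads. In 4 of them (RPL13A, RPL13, NOP56 and RANBP1) the site lay deeper in the intron over a snoRNA gene and stood below the CC wherever it has a value. They belong to the 10 introns, 1 a gene, with the highest lowest-replicate fold over the external background among 984 introns with at least 20 reads in every replicate. Each line runs 5′ to 3′ on the gene's strand with 10 exon and 20 intron bases of GRCh38, and the capitals mark the last 3 exon bases and the first 6 intron bases, which are scored below.
RPL13A intron 5 of 7, chr19:49490855-49490884 (+): ctacgacAAGGTGAGCtatgccaaacccca
PRAME intron 2 of 5, chr22:22557525-22557554 (-): gaggaaaAACGTAAGTtcgagccctgattc
RPL13 intron 3 of 5, chr16:89561359-89561388 (+): ggagctcAGGGTGAGTactggcagcgctgc
SRSF2 intron 2 of 2, chr17:76736134-76736163 (-): taagaaaATGGTAATGtctgggaatccgag
NOP56 intron 10 of 11, chr20:2656886-2656915 (+): aatggttCAGGTCAGTtgggctttgctggg
RBM28 intron 7 of 18, chr7:128335827-128335856 (-): ttcagaaGAGGTAAGCagctcatcctgttc
FTL intron 2 of 3, chr19:48965907-48965936 (+): ggacatcAAGGTAACTagtgtgtgggtaat
RANBP1 intron 5 of 5, chr22:20126359-20126388 (+): gaaaagaAAGGTGACGtggtgccatgggtt
GATA1 intron 5 of 5, chrX:48793288-48793317 (+): gctacacCAGGTGACGccctgccccttgga
VEGFA intron 5 of 7, chr6:43778909-43778938 (+): gacaagaAAAGTAAGTggccctgactttag
All 10 begin with GT and end with AG, as do 99.1% of all introns examined. The exon before the intron is coding in 8 of them, lies in the 5′ UTR in PRAME and in the 3′ UTR in SRSF2. It is coding for 93.7% of all introns examined, so neither count sets these 10 apart.

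The first question was where on transcripts the PRPF8 sites lie. Sites at annotated 5′ splice sites made up 63.1%, 64.7% and 72.4% of the PRPF8 sites in replicates 1 to 3 (mean 66.7% ± 4.96, SD, n = 3). The other 27 libraries held between 1.64% and 14.4%, so the groups did not overlap (exact permutation test of the RBP labels within replicates, two-sided, p = 0.001, adjusted p = 0.0035 over 7 measures). This p is the smallest of the 1000 choices; with the RBP as the unit there are only 10, and the smallest p is 0.1. The next RBP was ZC3H11A, with 12.6% ± 2.05 (SD, n = 3). Over the CC the share was 84.5% ± 2.3 (SD, n = 3) for PRPF8, against at most 13.6% in any other library. Part of this contrast is built in, since the CC of each other RBP contains the PRPF8 library and that of PRPF8 does not.

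**Figure D1:**
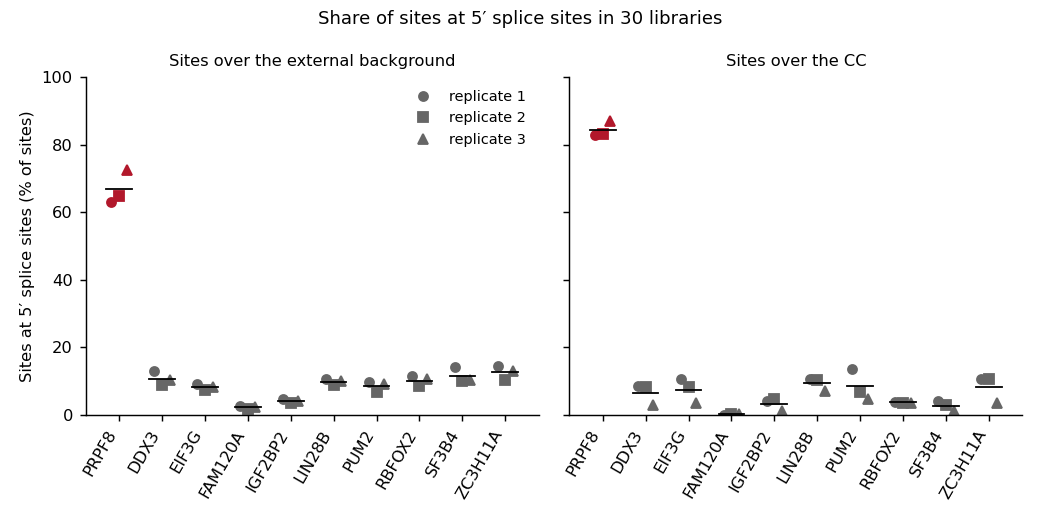
Share of a library's sites at annotated 5′ splice sites (vertical axis, percent) for 10 RBPs, with sites over the external background on the left and over the CC on the right. Each symbol is 1 replicate and the black line the mean of 3; the PRPF8 libraries, in red, sit between 63.1% and 72.4% on the left, above all others.

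At 3′ splice sites PRPF8 had few sites. They made up 7.07%, 6.14% and 4.86% of its sites, within the range of 1.1% to 52% over the other libraries, whose upper end was SF3B4 with 47% ± 7.36 (SD, n = 3). The difference from the other 27 libraries did not pass the test (exact permutation, adjusted p = 0.808).

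The remaining sites were spread over few classes. Exons away from annotated splice sites held 17.3% ± 3.72 (SD, n = 3) of the PRPF8 sites, and 5′ splice sites that only another annotated transcript uses held 3.56% ± 0.155. Introns away from splice sites held 3.31% ± 0.165, and places outside protein-coding genes 1.82% ± 0.089. These classes differed in their standing over the CC. Of the sites at 5′ splice sites of representative transcripts, 36.3%, 50.2% and 28.7% passed the limits over the CC in replicates 1 to 3, and at those of other transcripts 30%, 31.2% and 30.6%. Of the exonic sites, 8.77%, 10% and 3.47% did, and of those at 3′ splice sites 14.9%, 18.8% and 10%.

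The sites centered just inside the intron. Over sites within 100 nt before to 300 nt after the nearest 5′ splice site, the median center lay 8.5, 10 and 8 nt after the first intron base. The 5 nt bin with the most sites ran from 10 to 15 nt in replicates 1 and 2 and from 5 to 10 nt in replicate 3, and held 12.2%, 12.2% and 17.3% of all sites. Sites at 5′ splice sites had a median width of 51, 55 and 58 nt, and 85.9%, 86.7% and 93% of them covered the junction itself. The center lay on the intron side in 80.6%, 82.9% and 83.4%. The median center of the other libraries ran from -37.5 to 18 nt, where negative values lie in the exon, with PUM2 (10.4 ± 10.8 nt, SD, n = 3) around that of PRPF8, and the difference passed the test (exact permutation, two-sided, adjusted p = 0.0117). In the same exact permutation test it did not pass with sites over the CC (adjusted p = 0.829), with stricter limits (adjusted p = 0.194) or with introns of all transcripts (adjusted p = 0.367).

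**Figure D2:**
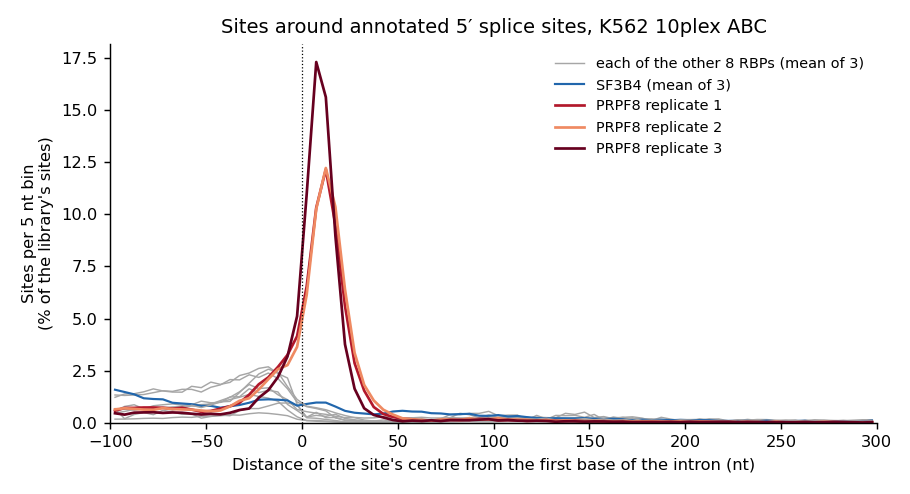
Sites per 5 nt bin, as percent of a library's sites (vertical axis), against the distance of the site's center from the first base of the nearest intron (horizontal axis, nt; negative values lie in the exon). The 3 PRPF8 replicates peak at 12.2%, 12.2% and 17.3% within the first 15 nt of the intron, while SF3B4 and each of the other 8 RBPs, drawn as means of 3 replicates, show no such peak.

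The second question was which introns are marked. PRPF8 marked 23429, 21475 and 29221 introns in replicates 1 to 3, or 12.4%, 11.4% and 15.5% of the 188742 introns examined, and 10911 introns (5.78%) in all 3. The last number is 46.6% of the marked introns of replicate 1, 50.8% of replicate 2 and 37.3% of replicate 3. In the 4319 genes that hold them, 28929 introns were not marked in any replicate. Introns marked in all 3 carried more reads than the other marked ones, with a median of 9, 10 and 13 reads against 5, 7 and 7. The choice itself favors this, since the limits act mainly as a minimum number of reads that had to be met in all 3 replicates. Across the 10911 introns, log2 reads of pairs of replicates correlated with a Pearson r of 0.69 (replicates 1 and 2), 0.73 (1 and 3) and 0.71 (2 and 3); introns are not independent replicates.

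The standing of the recurring introns over the pool is given as a description, since a peak called in the PRPF8 library chose them. Of those with a value, the median log2 fold over the CC was 2.82, 3.05 and 2.69. Of all 10911, the limits over the CC were passed by 36.5%, 48.4% and 33.9%, and in all 3 replicates an intron was marked over the CC 1615 times.

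Rank in the gene differed little between marked and other introns. First introns made up 8.84%, 7.35% and 8.36% of the marked introns, against 7.62%, 7.43% and 7.85% of all introns of the same genes. The excess of 1.22, -0.08 and 0.51 percentage points (mean 0.55 ± 0.65, SD, n = 3) lay below that of all 27 other libraries, which ran from 1.62 to 29 points, but the difference did not pass the test (exact permutation, adjusted p = 0.102). The highest excesses were those of EIF3G and DDX3, at 23.2 ± 8.45 and 22.4 ± 4.97 points (SD, n = 3). The mean relative position, where 0 is the first and 1 the last intron, differed between marked and unmarked introns of a gene by -0.026, -0.001 and -0.022 (difference from the other libraries, exact permutation, adjusted p = 0.808).

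By class of rank, the mean share marked was highest at introns 2 to 5, although in replicate 1 rank 1 (31.3%) stood above rank 2 and ranks 3 to 5 (both 30.9%). In genes marked in the replicate, the share of introns marked averaged 30.7% ± 4.18 at rank 1, 32.9% ± 4.46 at rank 2, 33.1% ± 3.97 at ranks 3 to 5, 25.3% ± 2.6 at ranks 11 to 20 and 21.9% ± 1.87 beyond (SD, n = 3). Genes with over 20 introns alone reach the last class, so it compares other genes as well as other ranks. Over the CC, rank 1 had the lowest share, with 8.58% ± 2.55 against 12.8% ± 3.39 at rank 2 and 13.5% ± 3.79 at ranks 3 to 5, and it was below both in each replicate. Last introns (28.5% ± 2.76) were marked about as often as the others (28.7% ± 3.33).

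Marked introns were somewhat longer than their unmarked neighbors, less so over the CC. The mean log2 length within genes was higher by 0.22, 0.22 and 0.17 in the marked introns of replicates 1 to 3, over 6514, 5913 and 6846 genes. Over the CC it was higher by 0.15, 0.16 and 0.04. The other libraries ran from -0.27 to 0.5, and the difference of PRPF8 from them did not pass the test (exact permutation, adjusted p = 0.605). Introns marked in all 3 replicates had a median length of 1525 nt, against 1165 nt for those of the same genes never marked. The relation was not monotonic: introns of 100 to under 200 nt were marked in 23.8% ± 3.56, those of 1000 to under 5000 nt in 30.2% ± 3.3, those of 5000 to under 20000 nt in 30.6% ± 2.95 and those of at least 20000 nt in 24% ± 2.81 (SD, n = 3). Introns shorter than 100 nt varied most, with 30.4%, 24% and 36.9% in replicates 1 to 3.

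The 5′ splice site of marked introns was closer to the consensus. The score was a log2-odds sum over the last 3 exon and first 6 intron bases, higher where the bases are those most common at all introns. Within genes it was higher in marked than in unmarked introns by 0.27, 0.26 and 0.27 (mean 0.27 ± 0.01, SD, n = 3). The other 27 libraries ran from -0.47 to 0.2, so the groups did not overlap (exact permutation, two-sided, p = 0.001, the smallest of 1000 choices; adjusted p = 0.0035). The lowest of these values, that of PUM2 in replicate 1, rested on 84 marked introns. Over the CC the PRPF8 value was 0.24 ± 0.03, while the difference from the other libraries, which ran from -1.49 to 0.91, did not pass (exact permutation, adjusted p = 0.282). The ends of that range rested on few marked introns, 61 for SF3B4 in replicate 3 and 7 for FAM120A in replicate 1. PRPF8 had 8714, 13365 and 8417 over the CC. The share of introns marked rose from 23.5% ± 2.62 at scores under 4 to 31.9% ± 2.92 above 10, and was higher in the top than in the bottom class in 3 of 3 replicates.

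**Figure D3:**
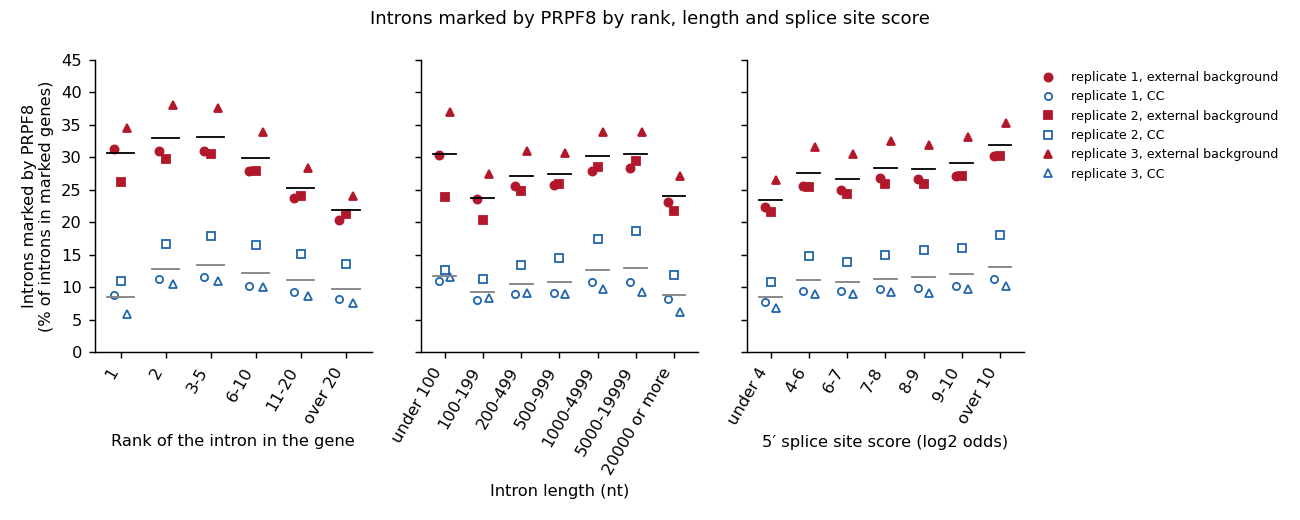
Share of introns marked by PRPF8 (vertical axis, percent of the introns of genes marked in that replicate) by rank in the gene, length in nt and 5′ splice site score. Filled red symbols are sites over the external background and open blue symbols sites over the CC, with 1 symbol a replicate and lines for means of 3; from the lowest to the highest score class the mean goes from 23.5% to 31.9% over the external background.

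Single positions of the splice site moved in different directions, given here as descriptions of the score's parts. Adenine at intron position 4 was found in 72.6% ± 0.174 of marked and 67.9% ± 0.151 of unmarked introns (SD, n = 3), and adenine at position 3 in 64% ± 0.792 and 60.1% ± 0.392. Adenine 2 bases before the junction was found in 67.1% ± 0.946 and 64.9% ± 0.231. Guanine at position 5 differed less, with 77.9% ± 0.136 and 76.9% ± 0.153. Guanine at the last exon base was less frequent in marked introns, with 79.7% ± 0.413 against 81.8% ± 0.326. U1 snRNA pairs with all of these positions, and U6 snRNA replaces it at the intron positions when the spliceosome is activated.

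Rare intron types were marked at different rates. In genes marked in the replicate, of introns that begin with GC in place of GT and end in AG, 36%, 30.5% and 36.3% were marked in replicates 1 to 3, against 27%, 26.6% and 32.5% of the GT-AG introns without the minor-type sequence. Introns that begin with GTATCC or ATATCC, the letters typical of the minor spliceosome (839 introns, 0.445% of all), were marked in 9.65%, 7.13% and 12.2%. The minor-type letters were looked for on the sense strand at the first base of the intron only, and no test was run on either type. Of the recurring introns, 1.08% were of the GC-AG kind and 0.11% of the minor-type sequence, against 0.716% and 0.888% of the unmarked introns of the same genes.

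Introns with a PRPF8 site at the 5′ end had an SF3B4 site at the 3′ end at a higher rate than unmarked introns, though most had none. In replicates 1 to 3, 9.02%, 19.3% and 12.8% of the marked introns carried one, against 2.84%, 6.12% and 4.5% of the unmarked introns of the same genes. Conversely, 51.9%, 50.7% and 55.6% of the introns with an SF3B4 site were marked by PRPF8, beside 12.4%, 11.4% and 15.5% of all introns examined. In genes with a marked intron in the replicate, PRPF8 marked 27%, 26.6% and 32.5% of the introns. The other RBPs marked far fewer introns, between 84 and 1631 a library. Of these, 38.2% to 76% were among the 10911 recurring introns of PRPF8, which are 5.78% of all introns examined. The genes that hold the recurring introns have 60946 introns. Whether these overlaps go with the expression of the genes was not tested.

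The third question was which genes recur. A marked intron was found in each of the 3 replicates in 5214 genes, 29.8% of the 17493 genes examined, and the same intron in all 3 in 4319 genes (24.7%). The 5214 genes were 78.8% of the marked genes of replicate 1, 86.8% of replicate 2 and 73.8% of replicate 3. For the other RBPs these shares lay between 19.7% and 44.3%, on 23 to 399 recurring genes. Of the 4319 genes, 1878 had 1 recurring intron, 579 had at least 5 and 75 at least 10, and the median gene had 18.2% of its introns among them.

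The 10 genes with the most recurring introns had between 27 and 105 introns. UBR4, a ubiquitin ligase of the N-degron pathway on chromosome 1, led with 36 of 105 introns. PRPF8 marked 53, 59 and 57 of its introns in replicates 1 to 3, with 708, 957 and 898 reads at them. The recurring introns were scattered over the gene, with at most 3 in a row, and the highest was intron 39 in replicates 2 and 3 (55 and 37 reads) and intron 1 in replicate 1 (29 reads). Over the CC, 7 of its introns recurred. BRWD1, a bromodomain protein, followed with 21 of 40 introns and a run of 6, and MACF1, a cytoskeletal linker, had 19 of 100.

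The share of introns that recurred differed among the other genes. STXBP5, a syntaxin-binding protein, had 17 of 27 introns marked in all 3 replicates, 7 of them in a row. NUP214, a nuclear pore protein on chromosome 9, had 19 of 35 introns, with 738, 897 and 1091 reads. Its highest intron was number 11 in replicates 2 and 3 and number 13 in replicate 1. FASN, the fatty acid synthase, had 17 of 42 introns, which are short, with 730, 973 and 1891 reads, so that replicate 3 was the highest. SMCHD1, HERC1 and PRKDC, the catalytic subunit of the DNA-dependent protein kinase, had 17 of 47, 17 of 77 and 17 of 85, and KMT2C, a histone methyltransferase, 16 of 58. Over the CC, none of the introns of FASN and MACF1 was marked in all 3 replicates (0 each), 1 each of NUP214, STXBP5 and KMT2C, 2 of BRWD1, 3 each of SMCHD1 and PRKDC and 4 of HERC1. The median reads of a recurring intron ran from 8 in BRWD1 to 84 in FASN over these genes and replicates.

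**Figure D4:**
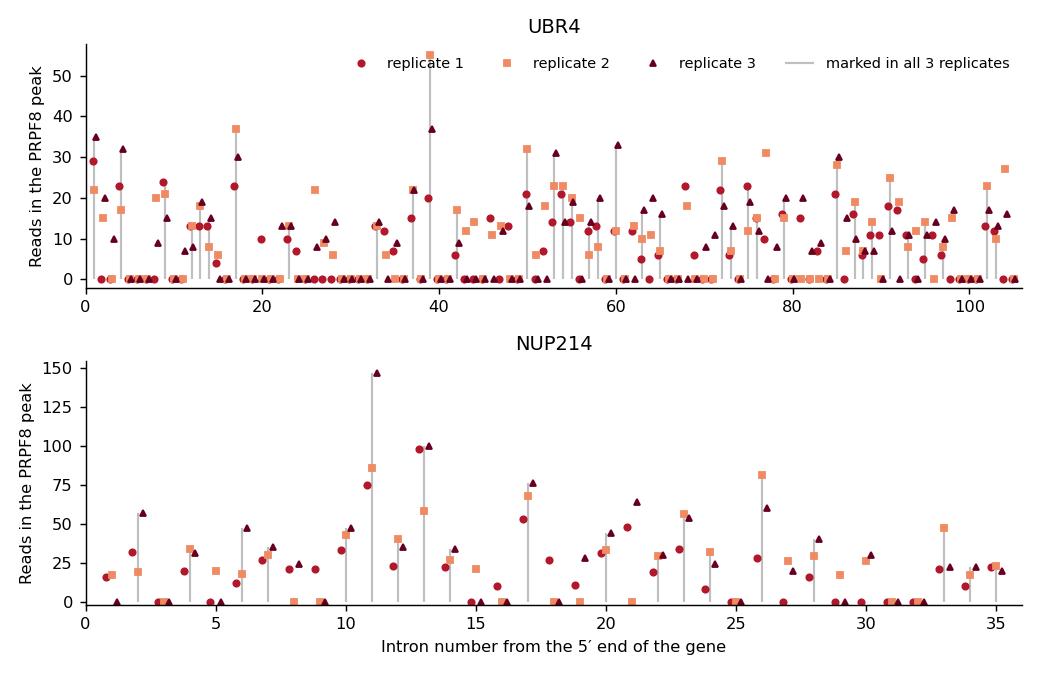
Reads in the PRPF8 peak at each 5′ splice site (vertical axis) against the number of the intron from the 5′ end (horizontal axis) in UBR4, with 105 introns, and NUP214, with 35. Symbols are replicates, 0 means that no peak was called, and gray lines show the 36 and 19 introns marked in all 3 replicates.

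Short genes could be marked throughout. In 29 genes every intron was marked in all 3 replicates. The longest of these were SLC3A2, the heavy chain of amino acid transporters, with 8 introns, and HSPA5, the endoplasmic reticulum chaperone BiP, with 7 introns and 305, 302 and 582 reads. FTL, the ferritin light chain, had all 3 of its introns marked.

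The spliceosome's own genes were marked at uneven rates, beside 5.78% of introns marked in all 3 replicates over all genes. Among 10 genes of U5 snRNP proteins, 5 had a recurring intron, and 16 of 171 introns (9.36%) recurred. SNRNP200, the Brr2 helicase, had 5 of 44 introns, SNRNP40 4 of 9, EFTUD2 3 of 27 and PRPF8 itself 3 of 42, with 95, 74 and 106 reads. Of 9 genes of the U4/U6 and tri-snRNP, 6 had one, led by SART3, a U6 recycling factor, with 6 of 18 introns (17% of 106 introns in the list). Of 6 U1 snRNP genes 5 had one, with LUC7L at 3 of 9 introns, and of 13 U2 snRNP and SF3 genes 10, with SF3B3 at 9 of 25. Of 7 Sm protein genes 5 had one, and 8 of their 24 introns recurred.

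Genes of splicing regulators and ribosomal proteins had higher shares over the external background. Over the CC, the introns marked in all 3 replicates were 1 of 53 in the SR list, 13 of 221 in the hnRNP list and 20 of 360 in the ribosomal list. They were 2 of 171 for U5, 2 of 106 for U4/U6 and the tri-snRNP, and 1 of 46 for U1. For U2 and SF3 they were 5 of 152, and for Sm proteins 0 of 24. Over all genes, 1615 of the 188742 introns examined were so marked over the CC. All 20 hnRNP genes with at least 2 introns had a recurring intron, and 96 of 221 introns (43.4%) recurred. PCBP2, a poly(C)-binding protein, had 11 of 14 introns, HNRNPA1 8 of 10 and PTBP1, the polypyrimidine tract-binding protein, 8 of 14. Of 10 SR protein genes 8 had one, with 29 of 53 introns (54.7%), led by SRSF7 with 6 of 7 introns and SRSF5 with 5 of 7. Of 79 ribosomal protein genes 75 had one, with 163 of 360 introns (45.3%), led by RPLP0 with 6 of 7. These lists differ in expression, which was not measured here.

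At the 10 introns printed above, the PRPF8 reads were high in every replicate but differed in their standing over the pool. At RBM28 intron 7, in the gene of a nucleolar RNA-binding protein, the reads were 167, 158 and 212. Their log2 fold over the CC was 4.15, 4.41 and 4.63, and the sites centered 17, 21 and 25.5 nt into the intron. SRSF2 intron 2, downstream of the stop codon of an SR protein gene whose introns there control its level, had 214, 178 and 334 reads and log2 folds of 3.6, 3.85 and 3.71. GATA1 intron 5 had 158, 159 and 143 reads, and a log2 fold of 3.98 in replicates 1 and 3. These 3 introns were high in all replicates against both backgrounds wherever a value over the CC exists.

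FTL intron 2 and VEGFA intron 5 stood lower over the pool. FTL had 175, 142 and 167 reads with log2 folds over the CC of 3.47, 3.49 and 2.11, and VEGFA, the gene of the endothelial growth factor, had 133, 158 and 133 reads with 2.85, 3.17 and 3.4. PRAME intron 2, in the gene of a tumor antigen, had 592, 467 and 715 reads and a log2 fold of 3.73 in replicate 3; no value was used in replicates 1 and 2, where the CC lists leave out repeats.

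The other 4 introns each hold a snoRNA gene under the site. RPL13A intron 5 (SNORD34) had 368, 611 and 685 reads centered 84.5, 85.5 and 75.5 nt into the intron. Its log2 fold over the CC was below 0 in replicates 1 and 2, where only the direction was recovered, and -0.5 in replicate 3. RPL13 intron 3 (SNORD68), NOP56 intron 10 (SNORD57) and RANBP1 intron 5 (SNORA77B) were likewise below 0 in every replicate with a value. Of the 10911 recurring introns 86 hold a snoRNA or scaRNA gene, and 35.7%, 31% and 24.7% of those with a value were below 0, against 0.254%, 0.373% and 0.383% of the others.

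PRPF8 reads were also high on the snRNAs it works with; these genes were chosen after their values were seen. The peak with the most reads lay on RNU5E-1, a U5 snRNA gene on chromosome 1, with 4452, 6390 and 8233 reads. This was 47.4%, 49.2% and 57.6% of the reads of all 10 libraries at their highest peak there, where RBFOX2 was next with 1466, 2097 and 2148. PRPF8 made up 15.8% and 11.7% of the pool in replicates 1 and 2; its part of the pool of replicate 3 was not recovered. At the U5 genes RNU5D-1 and RNU5B-1 the PRPF8 share was 72.4%, 72.4% and 75.1%, and 70.2%, 64.3% and 60.1%. Over the U5 genes and replicates the share ran from 31.2% at RNU5F-1 in replicate 3 to 75.8% at RNU5A-8P and RNU5E-4P, which are named as pseudogenes. In replicates 1 and 2 each lay above the part of PRPF8 in the pool. So did RNU2-2P, RNU6-4P (49.1% and 48.9%) and RN7SK, a small nuclear RNA outside the spliceosome (22.5% and 15.5%). A share at the highest peaks and a part of the whole pool are unlike measures. Of the PRPF8 sites in snRNA genes, 2.33%, 6.59% and 19.6% passed the limits over the CC, which lacks repeats in replicates 1 and 2. In replicate 3 the log2 fold over the CC was 2.55 at RNU5E-1 and 1.08 at RNU5F-1, which did not pass. It was 3.71 at RNU5D-1, 3.69 at RNU5E-4P and 3.83 at RNU5A-8P, which passed. Reads can map to several near-identical copies, and the authors set reads of repeats aside, so the division among copies is uncertain.

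The minor spliceosome's snRNAs differed in their PRPF8 share. RNU4ATAC and RNU6ATAC had shares of 49.1%, 62.4% and 48.6%, and of 41.1%, 43.1% and 47%. The log2 fold of RNU4ATAC over the CC was 2.36 in replicate 1, which did not pass, and 3.48 in replicate 2, which did. RNU11 and RNU12 had shares of 8.49%, 9.47% and 11.7%, and 8.83%, 8.64% and 9.33%. U4atac and U6atac enter with U5, while U11 and U12 recognize the 5′ splice site and the branch site before it. Whether the shares go with this order was not tested. At RNU12 the SF3B4 library held most reads, with 5359, 6022 and 8187 against 1156, 1167 and 1689 of PRPF8. RNU2-2P, a U2 gene, had 16.5%, 14.7% and 20%, and SF3B4 was again highest.

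**Figure D5:**
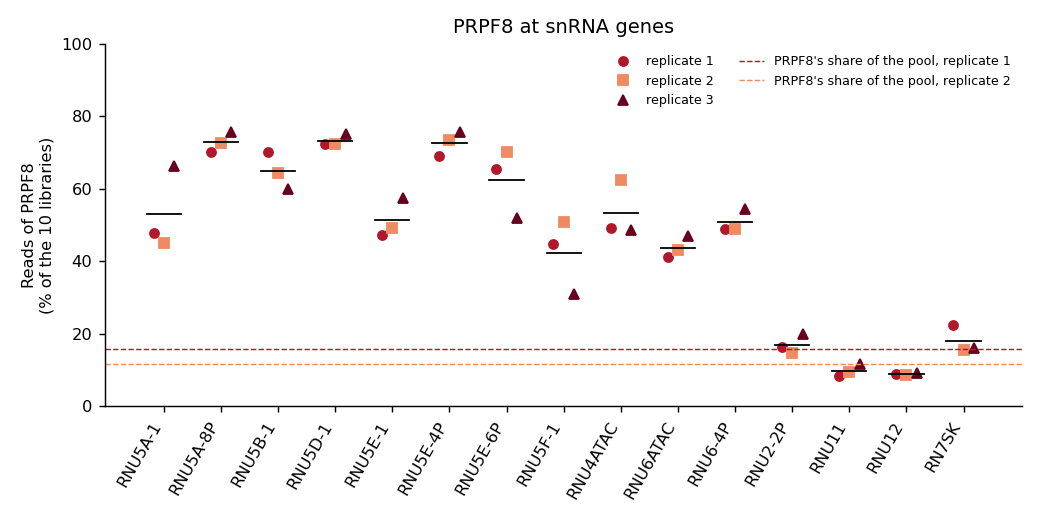
Share of PRPF8 in the reads of all 10 libraries at their highest peak on each snRNA gene (vertical axis, percent), with 1 symbol a replicate, black lines for means of 3 and dashed lines for the share of PRPF8 in the pools of replicates 1 and 2. The U5 genes, some of them named as pseudogenes, and the U4atac and U6atac genes lie between 31.2% and 75.8%. RNU11 and RNU12 lie between 8.49% and 11.7%.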

How the data were processed

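ABC reads of the 30 K562 10plex libraries were trimmed, freed of repeats, aligned to GRCh38 and freed of PCR duplicates by the authors, whose processing notes name cutadapt 2.8 and STAR 2.7.6. The authors called peaks in each library with CLIPper and deposited each with its p-value and a display score or read count; the merged peaks were deposited over an external background with a log2 fold and, up to a limit of 400, the −log10 of P. The background, which the methods describe as RNA-seq, is not named library by library in the sources used here. Against the CC, the authors deposited a chi-squared score with its p-value for replicates 1 and 2, repeats left out. For replicate 3 they deposited a log2 fold and the −log10 of P.

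Reads per peak were taken from the peak name, or recovered from the log2 fold as a ratio of whole numbers. CC reads in replicates 1 and 2 were solved from the chi-squared value, the PRPF8 or other reads and each RBP's part of the pool, with at least 1 read in a fold; 69.7% to 92.1% of values a library came out whole (within 0.2), and the shares found for the 10 libraries summed to 99.99% and 100%. The direction was taken from the reads of the other 9 libraries. For peaks below the CC in replicates 1 and 2 only the direction was recovered, not the size of the fold. Placement, tests, the direction and, for peaks above the CC only, the recovered CC reads were checked on simulated data. The depth, as reads in merged peaks, limits which introns can be marked; these reads are counted per library and cover counting error only.

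Introns came from GENCODE release 44, while the authors used an earlier release. Replicates of an RBP share a lysate with the other RBPs of that replicate, so labels were exchanged within replicates (exact permutation, two-sided, 1000 choices), with Benjamini-Hochberg adjustment over 7 measures and a threshold of 0.05. Errors are SDs over 3 replicates. The named genes are the 10 with the most recurring introns (ties by share), the 10 introns with the highest lowest-replicate fold (at least 20 reads, 1 a gene, no adapter-like site, not on chromosome 8), and up to 4 members of each list. The members and lists were chosen with earlier results of these data known. Some members of the marker lists are not reported here. Alternatives were the CC, stricter limits (P below 1e-05, fold above 16), all merged peaks, adapter-like sites left out, a window of 50 nt, any overlap, introns of at least 200 nt, introns of all transcripts, no replicate block, and each replicate left out. Python 3.11.15, NumPy 2.4.6, pandas 2.3.3, SciPy 1.17.1, pysam 0.24.0, samtools 1.23.1 and matplotlib 3.10.9 were used.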

Additional observations from a re-analysis of the deposited data

How the results depend on the processing

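PRPF8 sites per library averaged 37400, and 12180 over the CC, 21178 with stricter limits and 57262 with all merged peaks. Introns marked in all 3 replicates numbered 1615 over the CC and 6249 with stricter limits, and genes 2705 over the CC. The distance from the 5′ splice site exceeded that of the other libraries by 28.6 nt, and by 15.4 nt over the CC, 23.1 nt with stricter limits and 17.5 nt with introns of all transcripts, where it no longer passed. The difference in splice site score of 0.36 was 0.46 over the CC and no longer passed. The difference in length of 0.11 turned to -0.12 over the CC, and that in position of 0.02 to -0.0048 with stricter limits; neither passed under any setting. Leaving out each replicate gave differences of 55.2 to 60.6 percentage points for 5′ and -4.64 to -3.06 for 3′ splice sites, 25.8 to 30.7 nt, -10.7 to -8.04 points for first introns, 0.08 to 0.15 for length, 0.35 to 0.37 for score and 0.004 to 0.028 for position, 35644 to 39282 sites, 13016 to 15783 introns and 5410 to 5994 genes. With 2 replicates the smallest p is 0.01, and without replicate 2 or 3 the 3 measures that passed had adjusted p of 0.07 to 0.0933. Without the replicate block the differences were the same by construction and no call changed (share at 5′ splice sites 58.1 points, 3′ splice sites -3.8, distance 28.6 nt, first introns -9.09, length 0.11, score 0.36, position 0.02). The window and the overlap rule do not enter the distance. The causes were not tested. Depth limits the sites of few reads: the lowest site of PRPF8 had 3 reads.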

Other observations

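Sites of PRPF8 in introns away from any annotated splice site numbered 1293, 1134 and 1277 in replicates 1 to 3. The letters GGTAAG or GGTGAG, a common form of the 5′ splice site, were looked for on the sense strand from 30 nt before to 10 nt after the center. They were found in 5.8%, 5.56% and 6.5% of these sites, against 2.17%, 4.14% and 3.76% of windows of the same length 200 nt downstream. Among those that passed the limits over the CC (159, 193 and 249 sites), 9.43%, 9.84% and 9.64% held them. At annotated 5′ splice sites the same windows held them in 32.8%, 32.4% and 34.6%, and in exons away from splice sites in 0.97%, 1.21% and 1.24%. A match is a description of the letters and does not show that a splice site is used.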
